A study of Mus musculus with 2 samples.

Results

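The MYC, MAX and MXD network comprises 10 genes that were taken from the deposited tables by symbol, *Myc*, *Mycn*, *Max*, *Mxd1*, *Mxd3*, *Mxd4*, *Mxi1*, *Mnt*, *Mlx* and *Mga*, out of 23282 gene rows in all. The cells were splenic naïve CD4 T cells of *Fak* fl/fl mice. One culture was transduced with a retrovirus that carries Cre (RV-Cre) and the other with a control retrovirus (control), and both cultures carried the floxed alleles. For 3 days both cultures received antibodies to CD3ε (10 μg/ml) and CD28 (5 μg/ml) under Th17-polarizing conditions with IL-6, TGFβ1, TNFα and IL-1β and with antibodies against IFNγ and IL-4. The mice were females of 6 to 8 weeks, GFP+ cells were sorted, and the control cells are labelled WT by genotype although their title names *Fak* fl/fl. With 1 library per condition, differences could not be checked against replicates and are given without p-values. Cre in cells with intact *Fak* was not analysed here, and the effect of Cre and that of losing *Fak* cannot be told apart.

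MYC is a basic helix-loop-helix leucine zipper factor that binds DNA only as a dimer with MAX, most tightly at the E-box CACGTG. MAX also pairs with the MXD proteins, MNT and MGA, which occupy the same letters and repress, so that the MAX dimers present in a cell depend on which partners are made. In T cells MYC is induced by antigen receptor stimulation and is known for driving growth, nutrient uptake and ribosome production before division.

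*Myc* was the only member that passed the rule for a changed gene, and it was lower in RV-Cre-transduced Th17 cells, with 1678 control reads and 315 RV-Cre reads. Its partner *Max* and the MAX-like factor *Mlx* lay below their control values by less than 2-fold, while *Mxd1*, *Mxd3* and *Mnt*, whose products oppose MYC, lay above theirs by less than 1.5-fold. The other antagonists went the other way or could not be placed, with *Mxi1* at a ratio of 0.568, *Mga* at 0.740 and *Mxd4* at 1.35 with an interval that includes 1. Within each library, which needs no scaling, there were 2.83 MXD reads (*Mxd1*, *Mxd3*, *Mxd4* and *Mxi1*) per *Myc* read in control cells and 16.0 in RV-Cre-transduced cells. Whether some *Mxd3* reads in these sums belong to an overlapping gene on the opposite strand was not tested. In bulk samples, fewer cells that make a transcript and less of it per cell cannot be told apart.

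The E-box CACGTG, the sequence on which these dimers compete, was searched in RefSeq promoter windows of GRCm38.p6, which run from 250 bases before to 50 bases after a start site. The word reads the same on both strands. Windows were at hand for 9 of the 10 members, all but *Myc*, whose promoter was therefore not searched. Those of *Max*, *Mlx*, *Mnt* and *Mxd4* held 1 box each, which is 44.4% of the 9 genes against 8.09% of all 27025 genes with a window. Among genes with a window that also passed the expression minimum described below, the share was 11.9%. The windows of *Mxd1*, *Mxd3*, *Mxi1*, *Mga* and *Mycn* held none. The 30 bases around each member's box are shown first, 5′ to 3′ on the strand of the gene with the box in capitals. They are followed by the boxes of the 4 listed MYC targets that held one and were called lower after RV-Cre by the 2-fold rule described below: *Paics* (log2 ratio -1.80), *Eif4a1* (-1.17), *E2f3* (-1.13) and *Impdh2* (-1.02).
Max: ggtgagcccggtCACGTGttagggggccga
Mlx: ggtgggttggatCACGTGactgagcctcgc
Mnt: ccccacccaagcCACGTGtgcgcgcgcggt
Mxd4: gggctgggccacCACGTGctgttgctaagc
Paics: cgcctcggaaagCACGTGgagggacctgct
Eif4a1: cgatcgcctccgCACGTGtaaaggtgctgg
E2f3: tgacgtttcgcaCACGTGcgcggaggacgc
Impdh2: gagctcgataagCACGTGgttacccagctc

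The *Max* stretch is chr12:76962234-76962263 (minus strand), with the box starting 3 bases before the start site of its window, and the *Mlx* stretch is chr11:101087238-101087267 (plus strand), with the box 40 bases before. Both boxes lie inside the RefSeq span of the gene, which begins further upstream, but in no GENCODE exon. The *Mnt* stretch is chr11:74830789-74830818 (plus strand) and its box overlaps the first base of the RefSeq gene, while the *Mxd4* stretch is chr5:34187912-34187941 (minus strand), 219 bases before the start site and outside the gene. *Paics* has its stretch at chr5:76951087-76951116 (plus strand), where the box falls in an exon of the neighbouring *Ppat*. Those of *Eif4a1* (chr11:69672595-69672624, minus strand) and *E2f3* (chr13:29984398-29984427, minus strand) lie in no exon, and that of *Impdh2* (chr9:108560314-108560343, plus strand) lies in an exon of *Impdh2* itself by the GENCODE M21 annotation. A match is a description of the letters and not a measured binding site.

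Summed over all rows, the control library held 13799264 reads and the RV-Cre library 12305010. *Ptk2*, which encodes FAK, fell from 110 to 31 reads (ratio 0.318, 95% interval 0.206 to 0.477), and whether the 3′ reads fall inside the floxed part is not given in the sources used here. Of the 6 CD4 T cell markers looked up, 5 were in the tables and all of these had reads in both libraries, summing to 890 and 1405 CPM (reads scaled to a common library total). Most of this difference lay in *Cd3d* (265 and 607 CPM) and *Cd3e* (105 and 234 CPM). *Cd4* itself stood at 108 and 109 CPM, and *Cd3g* and *Lck* were slightly higher after RV-Cre. The 6 Th17 markers, all with reads in both, summed to 619 CPM for control and 257 CPM for RV-Cre. Markers of other cells were at low summed levels in control cells, with 32.2 CPM for CD8 T cells, 4.64 for myeloid cells, 3.04 for B cells and 2.9 for erythroid cells. These sums were higher after RV-Cre, at 69.4, 35.6, 8.78 and 18.9 CPM in the same order. Both CD8 T cell markers were higher (*Cd8a* 23.3 and 47.1 CPM, *Cd8b1* 8.84 and 22.3 CPM), as was every erythroid marker with reads. In the myeloid and B cell lists, single markers went both ways. *Marco* (0.362 and 23.5 CPM) and *Csf1r* (1.16 and 8.94 CPM) made up most of the myeloid sum after RV-Cre, whereas *Lyz2* stood at 1.59 and 0.569 CPM and *Itgam* at 0.507 and 0.244 CPM. In the B cell list *Cd79b* stood at 1.30 and 0.894 CPM and *Pax5* at 0 in both. NK cell markers summed to 4.86 and 3.25 CPM and also went both ways. *Klrk1* (41 and 9 reads) and *Klrb1c* (12 and 0) were lower after RV-Cre, and *Eomes* (14 and 23) and *Ncr1* (0 and 8) were higher. The part of these other cells in the values of the network was not tested.

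**Figure D1:**
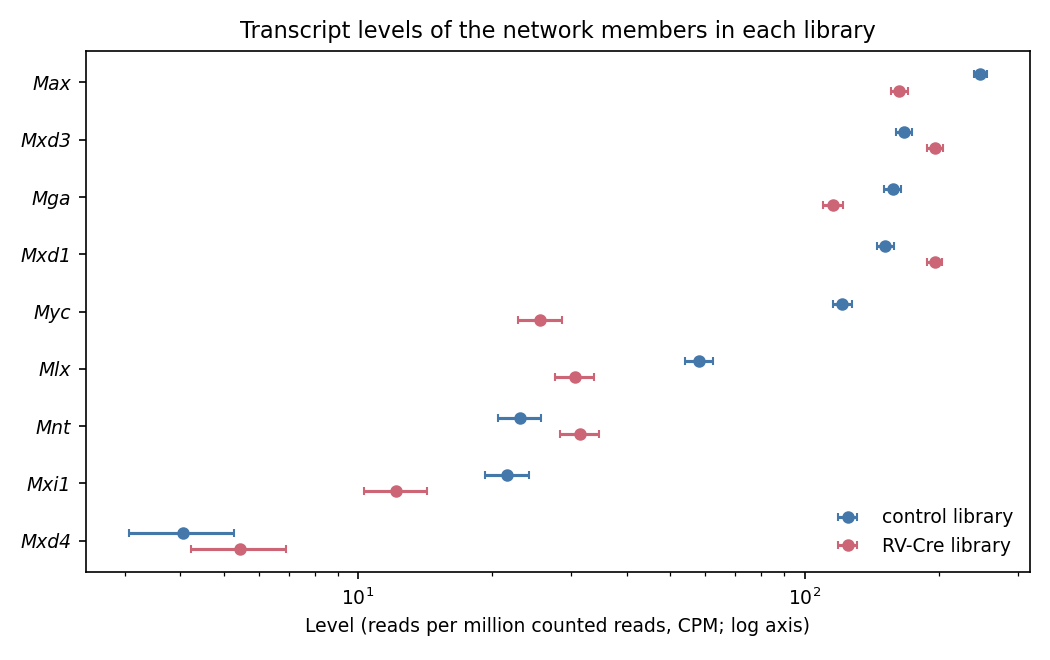
Level of each network member in the control (blue) and RV-Cre (red) library, in CPM on a log axis, with exact Poisson 95% intervals for counting error; *Mycn*, with 1 and 0 reads, is left out. The interval pairs of *Mxd4* overlap, while *Myc* stands at 122 and 25.6.

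The libraries were of the 3′ type, in which a transcript gives about 1 read whatever its length, so levels of different genes are set side by side as CPM without division by length. In control Th17 cells the order was *Max* (248 CPM), *Mxd3* (167 CPM), *Mga* (158 CPM), *Mxd1* (152 CPM), *Myc* (122 CPM), *Mlx* (58.0 CPM), *Mnt* (23.0 CPM), *Mxi1* (21.6 CPM) and *Mxd4* (4.06 CPM). In this order the neighbours *Mxd3* and *Mga*, *Mga* and *Mxd1*, and *Mnt* and *Mxi1* had overlapping counting intervals, and the other neighbours did not. In RV-Cre-transduced cells *Mxd3* (196 CPM) and *Mxd1* (195 CPM) stood first, before *Max* (163 CPM) and *Mga* (116 CPM). The next members were *Mnt* (31.4 CPM), *Mlx* (30.6 CPM) and *Myc* (25.6 CPM), followed by *Mxi1* (12.2 CPM) and *Mxd4* (5.44 CPM). There the intervals of *Mxd3* and *Mxd1*, of *Mnt* and *Mlx*, and of *Mlx* and *Myc* overlapped. By its read count *Myc* was the fifth of these 9 genes in control cells and the seventh after RV-Cre. The plot of levels by library shows *Max* above *Mxd1* and *Mxd3* in control cells and below them after RV-Cre, while *Myc* was below both in each library.

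Counts of each gene were TMM-scaled, and 1 was added before taking log2. A gene was called when these values differed by 2-fold or more and either library reached a log2 value of 4, which is 15 normalized reads. Of the 10 members, 9 passed this minimum, and *Mycn* did not. Among the 9, 0 were called higher and 1 was called lower, *Myc*, against 14.2% and 12.3% of the 12112 genes past the minimum. Of the abundant genes, those reaching a log2 value of 8 in either library, 4.62% were called higher and 9.73% lower, and these include all measurable members but *Mxd4*. The number of members called was near that of genes at large and is no result about the network. By 95% counting intervals, 8 of the 9 members differed from a ratio of 1, 5 below and 3 above, as did 74.7% of genes past the minimum and 82.3% of abundant genes. Counting error is thus smaller than most differences between these libraries. Culture-to-culture variation was not measured.

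The MYC factors are the activators of the network. *Myc* (chr15:61985341-61990361) had 1580 normalized reads for control and 335 for RV-Cre. The RV-Cre value was 4.72-fold lower, a ratio of 0.212 (95% counting interval 0.187 to 0.239) and a log2 ratio of -2.24. Only 2.35% of the genes past the minimum had a lower log2 ratio, and among the 6863 abundant genes it ranked 50 from the lowest. *Pvt1*, the non-coding gene next to *Myc*, which was singled out after its values were seen, had 133 and 99 reads, and its ratio of 0.840 has an interval that includes 1 (0.641 to 1.10). *Mycn* (chr12:12936093-12941836), the family member of neural and embryonic tissue, had 1 control read and 0 RV-Cre reads. Taking 3 reads as the upper limit of a 0, this allows up to 0.244 CPM in the RV-Cre library, so *Mycn* was not measurable at this depth and no fold is given.

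*Max* (chr12:76937269-76962323), the partner without which MYC does not bind the E-box, had 3416 control reads and 2007 RV-Cre reads. Its ratio was 0.663 (95% interval 0.627 to 0.701) and its log2 ratio -0.59, below the 2-fold rule. *Mlx* (chr11:101086707-101092207), the MAX-like factor that pairs with the Mondo proteins, MNT, MXD1 and MXD4, had 801 and 376 reads, a ratio of 0.530 (0.467 to 0.600) and a log2 ratio of -0.92. After *Myc* this was the lowest ratio among the members. The *Mlx* exons overlap those of *Psmc3ip* on the opposite strand by up to 385 bases. *Psmc3ip* itself had 538 and 158 reads, no source used here says whether reads were counted by strand, and the share of reads that belongs to each gene was not tested.

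The MXD proteins are small repressors that pair with MAX and bring the SIN3 corepressor to E-boxes, and they are known from cells that leave the cycle, apart from MXD3, which is known from cells in S phase. *Mxd1* (chr6:86647044-86669234) had 2093 control reads and 2405 RV-Cre reads, a ratio of 1.30 (95% interval 1.22 to 1.38). *Mxd3* (chr13:55325170-55329900) had 2305 and 2408 reads, a ratio of 1.18 (1.11 to 1.25), and its exons overlap those of the opposite-strand gene *Prelid1* (2653 and 2565 reads) by up to 105 bases. As for *Mlx*, the strand setting is not given, and the share of reads that belongs to *Mxd3* and to *Prelid1* was not tested. By these counts *Mxd1* and *Mxd3* were the most abundant MXD transcripts. Both lay above control by more than counting error and by less than 1.5-fold. *Mxd4* (chr5:34176580-34187710) had 56 and 67 reads, and its interval of 0.933 to 1.96 around a ratio of 1.35 includes 1. *Mxi1* (chr19:53310128-53373293) differed in direction from the other MXD genes. It had 298 and 150 reads, a ratio of 0.568 (0.464 to 0.693). Relative to *Mxd1* in the same library, *Mxi1* went from 0.142 to 0.0624 reads per read, a change to 0.438 (95% interval 0.354 to 0.540), whereas *Mxd4* per *Mxd1* changed to 1.04 (0.716 to 1.52).

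The large members carry other parts besides the dimerization domain. *Mnt* (chr11:74830806-74845725), a widely expressed repressor that pairs with MAX and with MLX, had 318 control reads and 386 RV-Cre reads, a ratio of 1.37 (95% interval 1.18 to 1.59). *Mga* (chr2:119872503-119970129), which also has a T-box domain and holds together a variant Polycomb complex, PRC1.6, had 2174 and 1426 reads, a ratio of 0.740 (0.692 to 0.792). Hence the antagonists of MYC did not share a direction, with *Mxd1*, *Mxd3* and *Mnt* above and *Mxi1* and *Mga* below control beyond counting error.

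**Figure D2:**
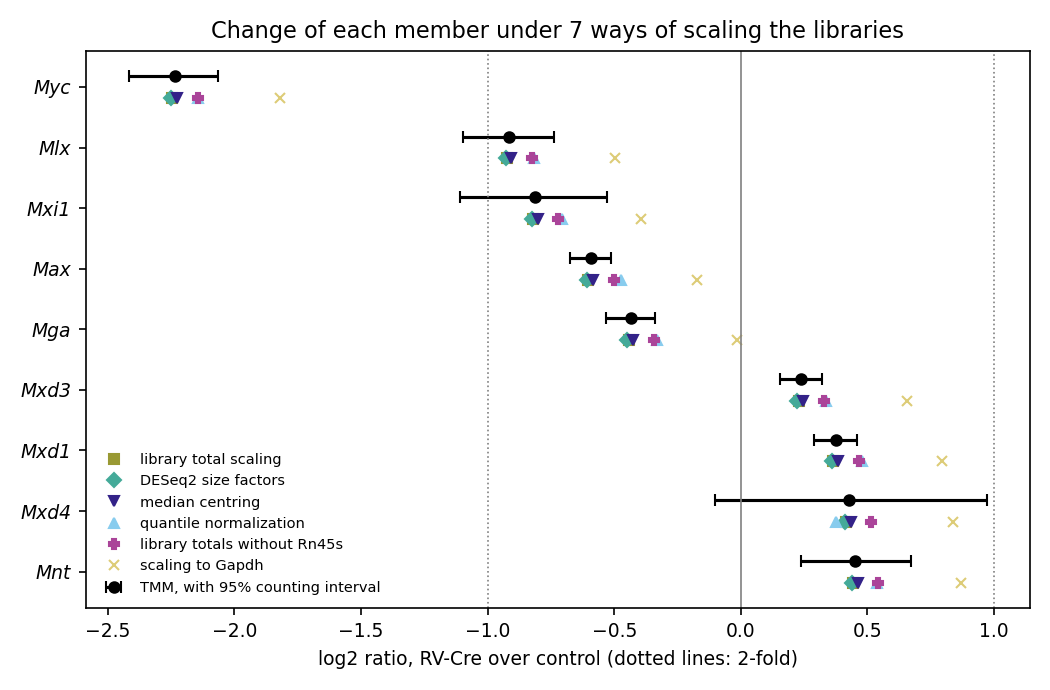
log2 ratio of RV-Cre over control for the 9 measurable members, with 95% counting intervals of the ratio under TMM scaling (black) and the values under 6 other scalings (coloured markers); dotted lines mark 2-fold. *Myc* lies between -2.25 and -1.82 under every scaling drawn, and *Mga* comes nearest to 0, at -0.02 with scaling to *Gapdh*.

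Over the 6 other scalings, the log2 ratio of *Myc* went from -2.25 to -1.82, and no member changed sign. Scaling to *Gapdh*, which itself had a log2 ratio of -0.42 and only 956 and 634 reads, raised the median of all genes past the minimum by 0.42 (2960 genes called higher and 780 lower, in place of 1720 and 1491) and brought *Max* to -0.17 and *Mga* to -0.02, while *Mxd1* reached 0.79 and *Mnt* 0.87. Of these scalings, 5 apply 1 factor or shift to all genes of a library and so keep the distances between members by construction, apart from the pseudocount. Quantile normalization does not, and it exchanged the order of *Mxd1* (0.37 to 0.48) and *Mxd4* (0.43 to 0.38).

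The make-up of the network within a library is free of this scaling. It still includes *Mxd3* and *Mlx* reads, whose split with the overlapping opposite-strand genes was not tested. *Myc* held 12.8% of the 13140 reads on the 10 members in control cells (95% Clopper-Pearson interval 12.2% to 13.4%) and 3.30% of 9540 after RV-Cre (2.95% to 3.68%). The share of *Max* went from 26.0% to 21.0%. *Mxd1* and *Mxd3* together held 33.5% in control cells (32.7% to 34.3%) and 50.5% in RV-Cre-transduced cells (49.4% to 51.5%). *Mga* held 16.5% and 14.9%, *Mlx* 6.10% and 3.94%, and *Mnt* 2.42% and 4.05%. The intervals of the 2 libraries were apart for each of these genes.

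**Figure D3:**
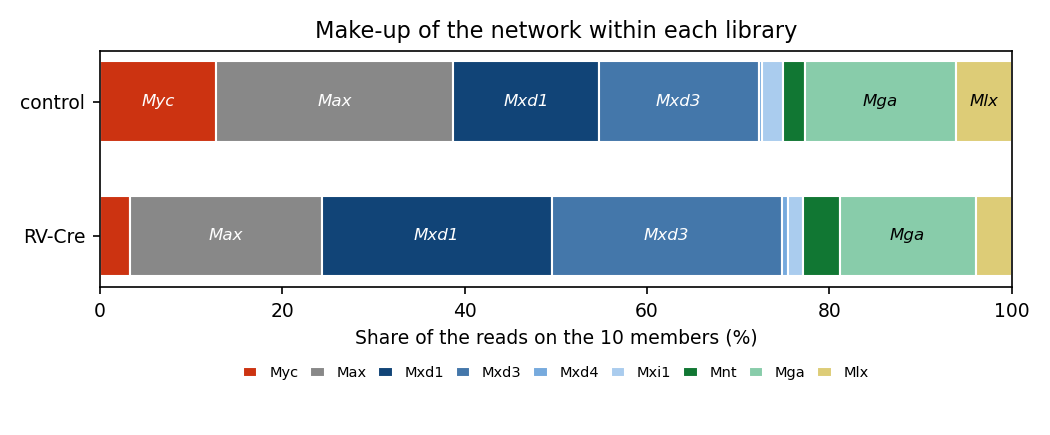
Share of the reads on the 10 members held by each gene in the control and RV-Cre libraries, in percent of 13140 and 9540 reads; *Mycn* is too rare to draw. *Myc* narrows from 12.8% to 3.30% and *Mxd1* with *Mxd3* widen from 33.5% to 50.5%.

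Set against its partner, there were 0.491 *Myc* reads per *Max* read in control cells and 0.157 in RV-Cre-transduced cells. This is a change to 0.320 (95% interval 0.279 to 0.365), from exact conditional intervals that cover counting error only. *Myc* per *Mxd1* went from 0.802 to 0.131, a change to 0.163 (0.142 to 0.187). The 4 MXD genes together went from 1.39 to 2.51 reads per *Max* read, a change of 1.80-fold (1.68 to 1.93), and *Mnt* per *Max* changed 2.07-fold (1.76 to 2.43). *Mxi1* per *Max* changed to 0.857, with an interval that includes 1 (0.694 to 1.05), and *Mga* per *Max* to 1.12 (1.02 to 1.22). With *Mnt* and *Mga* added to the MXD genes, antagonist reads per *Myc* read went from 4.32 to 21.7. Hence the control library had more reads on *Max* than on any other member, and the RV-Cre library had more on *Mxd1* and on *Mxd3* than on *Max*. These are ratios of transcripts, and protein levels were not measured in these libraries.

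Of the network genes outside the 10, *Mlxip*, the Mondo partner of MLX, had 308 and 334 reads and a ratio of 1.22 (95% interval 1.05 to 1.43). *Mycl* had 0 reads in both libraries, and *Mlxipl*, the Mondo factor of liver, had 0 and 1.

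Known MYC targets were followed in 3 lists of 86 genes, of which 84 passed the minimum. Of these 84, 76 had a log2 ratio below 0, 20 were called lower (23.8%, against 12.3% of all genes past the minimum) and 1 was called higher (1.19%, against 14.2%). Their median log2 ratio was -0.57, against -0.01 over all genes past the minimum. With scaling to *Gapdh*, 5 targets and 780 of all genes were called lower, so the number of targets called depends on the scaling. The median of the targets was then -0.15, while that of all genes was raised by 0.42. Restricted to the 82 abundant targets, 19 were called lower (23.2%) and 0 higher, beside the 9.73% and 4.62% of genes at that level, whose median was -0.09. Many of the listed genes also serve the cell cycle, so the lists are not a readout of MYC alone, and they were drawn up with earlier results of these data known.

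Of the target lists, that of the nucleolus and ribosome assembly had the median nearest to 0. Of 34 genes, 30 had a log2 ratio below 0, but only 2 were called lower (5.88%, against 12.3% of all genes and 9.73% of abundant genes) and 0 higher, with a median of -0.42. *Nip7*, a factor of 60S subunit maturation, fell from 1859 to 736 reads (log2 ratio -1.16), and *Ncl*, which encodes nucleolin, fell from 68014 to 29596 reads (-1.03). *Tcof1*, the treacle factor of ribosomal RNA transcription, was at -0.93. At the other end were *Polr1b*, a subunit of RNA polymerase I, at 0.34, *Bop1* at 0.22 and *Wdr43* at 0.07.

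Of the 30 metabolism and transport targets past the minimum, 28 had a log2 ratio below 0, 9 were called lower (30%, against 12.3% of all genes) and 0 higher, with a median of -0.67. *Paics*, an enzyme of purine synthesis whose promoter box is printed above, fell from 13561 to 3440 reads, a ratio of 0.286 (95% interval 0.276 to 0.297). *Sord*, sorbitol dehydrogenase, had 51 and 3 reads, a ratio of 0.0664 with a wide interval (0.0133 to 0.205), and *Tmem97* fell from 1179 to 433 reads (log2 ratio -1.27). *Slc1a5*, a glutamine carrier, was at 0.29, *Pkm*, the pyruvate kinase of muscle and dividing cells, at 0.11, and *Cad*, of pyrimidine synthesis, at -0.10. *Eno1* was listed at 0 in both libraries beside 2 rows of its near-identical copy *Eno1b*, with 1105 and 1069 control reads, so reads of such gene pairs could be split by the counting.

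Targets of the cell cycle and transcription had the lowest median, -0.94, with 9 of 20 called lower and 1 called higher (45.0% and 5.00%, against 12.3% and 14.2% of all genes). *Mcm4*, a subunit of the replicative helicase, fell from 5068 to 1062 reads (log2 ratio -2.08), *Plk4*, the kinase of centriole duplication, from 573 to 132 (-1.94), and *Plk1*, a mitotic kinase, from 1034 to 254 (-1.85). *Ccnd1* was the gene called higher, with 27 and 65 reads and a log2 ratio of 1.41. *Ccnd2*, the abundant D cyclin of these cells, had 30910 and 27602 reads and a log2 ratio of 0.01, and *Id2*, an inhibitor of E proteins, was at -0.01.

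Of 8 genes known to be repressed by MYC, 5 passed the minimum, 0 were called higher and 1 was called lower, beside 14.2% and 12.3% of all genes, and so few genes allow no reading of the counts. *Cdkn1b*, which encodes the CDK inhibitor p27, had 954 and 1154 reads (log2 ratio 0.45), *Ndrg2* was at 0.43 and *Cdkn1a*, which encodes p21, at 0.35. *Ndrg1* was at -0.30, and *Gadd45a*, a growth arrest gene, had 28 and 10 reads (-1.23).

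**Figure D4:**
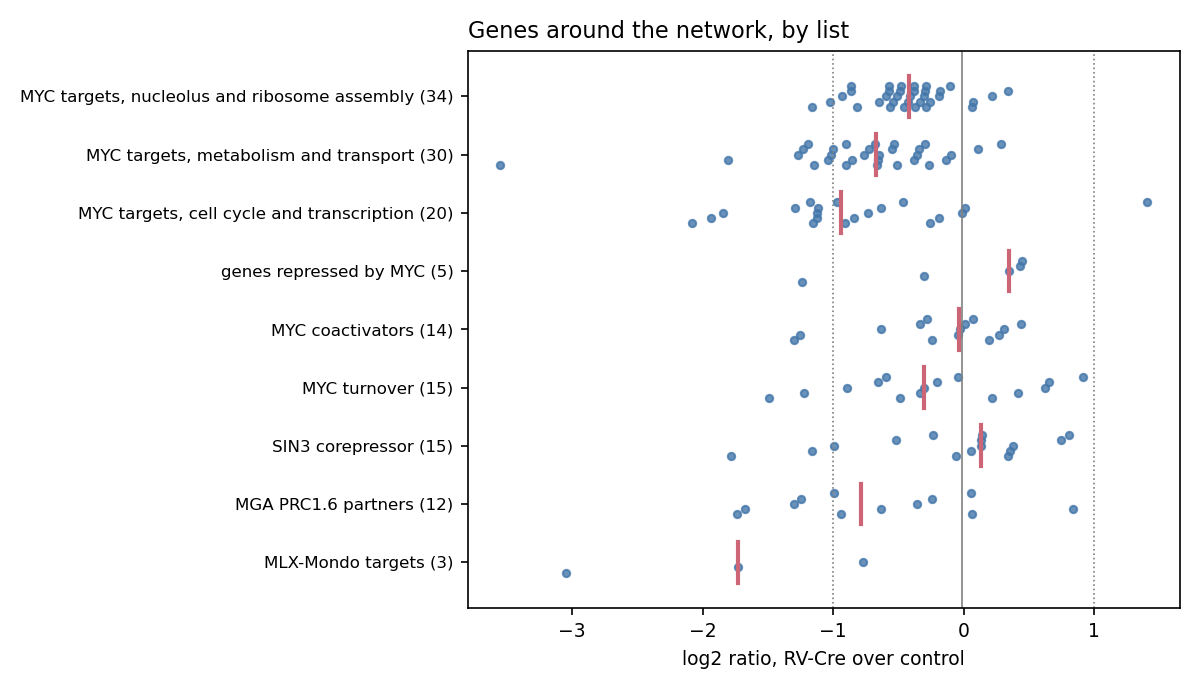
log2 ratio of RV-Cre over control for each gene past the minimum (points, vertically spread for legibility) in 9 lists, with the number of genes in brackets and the median as a red bar; the grey line is the median of all genes and dotted lines mark 2-fold. The 3 lists of MYC targets have medians of -0.42, -0.67 and -0.94, and the MYC coactivators one of -0.03.

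Among 71 listed targets with both a promoter window and a level past the minimum, the 17 with a CACGTG had a median log2 ratio of -0.43, and 4 of them (23.5%) were called lower. The 54 without it had a median of -0.64, and 15 of them (27.8%) were called lower. Over all measured genes with a window, the 1087 genes with a CACGTG had a median log2 ratio of -0.09 and 12.2% called lower, against 0.01 and 11.6% for the 8067 without. The share called higher was 9.20% with the box and 14.4% without. For CACGCG, a related word searched on both strands as CACGCG and CGCGTG, the medians were -0.07 and 0.02, and for CAGCTG, another E-box, 0.10 and -0.02. The shares called higher with and without the word were 9.39% and 14.9% for CACGCG, so the lower share was not particular to CACGTG. For CAGCTG they were 16.5% and 13.2%. CACGTG occurred in 7.15% of all 32851 windows, CACGCG in 9.27% and CAGCTG in 16.3%. These different words cannot overlap one another. Among abundant genes, a minimum chosen after seeing the data, the median was -0.12 with CACGTG and -0.07 without, 9.02% and 9.22% were called lower, and 3.70% and 4.74% were called higher. For CACGCG the medians of abundant genes were -0.14 and -0.06.

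Of 14 coactivators of MYC, 2 were called lower (14.3%, near the 12.3% of all genes past the minimum) and 0 higher, with a median log2 ratio of -0.03. *Wdr5*, which presents histone H3 to methyltransferases, fell from 2539 to 911 reads (log2 ratio -1.30). *Ruvbl2*, an AAA+ ATPase of the TIP60 and INO80 complexes, fell from 479 to 177 (-1.26). *Hcfc1* was at -0.64. *Trrap*, the scaffold of MYC-bound acetyltransferases, was at 0.44, the acetyltransferase *Kat5* at 0.31 and *Kat2a* at 0.27.

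Among 15 genes that set the stability of MYC, 2 were called lower (13.3%, near the 12.3% of all genes) and 0 higher, with a median of -0.30. *Aurka*, a mitotic kinase that also shields MYC proteins from degradation, fell from 529 to 166 reads (log2 ratio -1.49), and *Cip2a*, listed under its older symbol *C330027C09Rik*, an inhibitor of the phosphatase that acts on MYC, fell from 400 to 151 (-1.23). *Skp2*, a ubiquitin ligase subunit, was at -0.90. *Pim1*, a kinase reported to stabilize MYC, had 3511 and 5854 reads and a log2 ratio of 0.91, followed by the ligase *Huwe1* at 0.65 and the deubiquitinase *Usp28* at 0.63.

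The SIN3 corepressor, through which MXD proteins and MNT act, had 15 of 16 listed genes past the minimum, 2 called lower (13.3%, near the 12.3% of all genes) and 0 higher, with a median of 0.13. *Sap30* fell from 162 to 41 reads (log2 ratio -1.78) and *Rbbp7*, a histone chaperone, from 4918 to 1948 (-1.16), while the deacetylase *Hdac2* was at -0.99. *Arid4b* was at 0.81, *Arid4a* at 0.74 and *Brms1* at 0.38.

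Of the 12 partners of MGA in PRC1.6, 4 were called lower (33.3%, against 12.3% of all genes and 9.73% of abundant genes) and 0 higher, with a median of -0.79. *E2f6*, the repressive E2F of this complex, fell from 547 to 145 reads (log2 ratio -1.73), *Tfdp1*, the dimer partner of E2F proteins, from 1585 to 439 (-1.68), and *Wdr5*, which also stands in the coactivator list, is given above. *Ring1*, a ubiquitin ligase of Polycomb, was at 0.84, with 91 and 145 reads, *Rnf2* at 0.06 and *Hdac1* at 0.05. *Tfdp1* and *E2f6* also serve cell cycle transcription or its repression outside this complex.

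The targets of MLX with Mondo proteins were few. *Arrdc4*, an arrestin of nutrient uptake, fell from 45 to 4 reads, to a ratio of 0.10 (95% interval 0.0262 to 0.275), and *Klf10* fell from 504 to 134 reads (log2 ratio -1.73). *Txnip*, which restrains glucose uptake, had 609 and 315 reads and a log2 ratio of -0.77. Of these 3 genes 2 were called lower (12.3% of all genes), beside *Mlx* itself at -0.92 and *Mlxip* at 0.29.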

How the data were processed

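RNA-seq was analysed for 1 control and 1 RV-Cre library. The deposited values are raw counts of reads for each gene symbol, not normalized by the authors. The submitters' processing notes name bcl2fastq 2.20.0.422, Bowtie2, bedtools and mm10, with no roles. The labels give a QuantSeq kit and 500 ng of total RNA. Read filters, annotation and strand setting are not given in the sources used here. TMM factors (edgeR 4.0.16, R 4.3.3) gave size factors of 1.06 and 0.941. A pseudocount of 1 was added before log2. Ratio intervals (95%) were derived from the Clopper-Pearson interval of a gene's RV-Cre reads among its reads in both libraries (scipy 1.17.1). A 0 was given an upper limit of 3 reads. Both describe counting error alone, and no molecular identifiers are stated, so reads may not be independent molecules. The procedure was tested on simulated data, but the outcome is not given here and no result rests on it. Gene positions and promoter windows are those of RefSeq for GRCm38.p6, the assembly of mm10, and exons those of GENCODE M21.

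The members and lists were chosen with earlier results of these data known. Beside the members, *Ptk2*, *Rn45s* and *Gapdh*, the genes named are the 3 highest and 3 lowest log2 ratios of each list. Other genes, such as *Usf2* and *Pvt1*, were named after their values were seen. Rows that share a symbol with another (79 of 23282) were kept apart. Alternatives were other expression minimums, fold thresholds, pseudocounts, scalings (DESeq2 1.42.0, limma 3.58.1 for quantiles) and a 99% interval. Protein sequences of the members were not compared here.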

Additional observations from a re-analysis of the deposited data

How the results depend on the processing

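No paired analysis was possible because the comparison is of 1 library with 1 other, and for the same reason no library could be left out. The direction of all 9 measurable members was the same under the 6 other scalings and with pseudocounts of 0.1 and 10. Of 88 values of the members and *Ptk2* under these settings, 15 left the counting interval and 73 did not. *Myc* remained called lower under every minimum, fold threshold, scaling and pseudocount tried. With a fold threshold of 1.5, 4 members were called lower, as were 2777 of the 12112 genes past the minimum. The 99% interval excluded 1 for the same 8 members. Its share over all genes was not computed, and the 95% interval excluded 1 for 74.7% of genes past the minimum and 82.3% of abundant genes. Without *Mga* and *Mnt* in the denominator, the share of *Myc* was 15.8% in control and 4.08% in RV-Cre-transduced cells. The limits are depth for *Mycn* and *Mxd4*, overlapping opposite-strand genes for *Mxd3* and *Mlx*, and the single library per condition for all genes.

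Of the MYC targets, 20 were called lower and 1 higher. With a fold threshold of 1.5, 40 were called lower, with 3, 5 lower and 0 higher, and with a log2 minimum of 8, chosen after seeing the data, 0 higher. Scaling to *Gapdh* left 5 called lower and a median log2 ratio of -0.15, and quantile normalization gave a median of -0.45. Of all genes, 1720 were called higher and 1491 lower. These were 3265 and 2441 with no minimum, 2847 and 2777 with a fold threshold of 1.5, 1008 and 669 with 3, 2960 and 780 with scaling to *Gapdh*, and 317 and 668 with a log2 minimum of 8. With a minimum of 4 in both libraries 758 were higher, and with 6 in at least 1 library 734. The other settings stayed within 1.5 times the main counts. The larger shift with *Gapdh* follows from its own lower ratio, and the cause of the other shifts was not tested. *Rn45s*, the ribosomal RNA gene, held 8.50% of control and 14.6% of RV-Cre reads, and totals without it moved the median of all genes by 0.09.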

Other observations

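Other basic helix-loop-helix factors can bind CACGTG without being part of the network. A list of 11 was written after the values of these libraries had been seen, and 10 passed the minimum, with a median log2 ratio of 0.10. *Usf2*, the most abundant of the USF pair, had 3046 control reads and 2796 RV-Cre reads, and *Usf1* had 35 and 18 (log2 ratio -0.75). *Tfeb*, a regulator of lysosome genes, fell from 74 to 30 reads (log2 ratio -1.10), and its relative *Tfe3* had 274 and 306 reads (0.33). *Npas2*, a clock factor, fell from 54 to 22 reads (-1.09), and *Bhlhe41*, a repressor of the clock and of lymphocyte genes, rose from 8 to 28 reads (1.85, 95% interval of the ratio 1.75 to 10.0). *Bhlhe40*, known from Th17 cells that make GM-CSF, had 662 and 778 reads (0.41).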
